A study of Mus musculus with 2 samples.

Results

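The kinase genes *Ak7*, *Ak8*, *Ak9*, *Nme5*, *Nme7* and *Nme9*, whose proteins belong to motile cilia, were followed together with *Ak1*, a cytosolic adenylate kinase found in many tissues, across cell populations of differentiating mouse ependymal cultures. The genes were taken by symbol from the deposited gene list and make up 7 of its 32287 genes. All 7 passed the filter on low counts.

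Adenylate kinases convert 2 ADP into ATP and AMP, and nucleoside diphosphate kinases pass a phosphate between nucleotides. Dynein motors along a beating cilium consume ATP, and the axoneme carries its own nucleotide kinases, some of which also serve as structural parts. Ependymal cells line the brain ventricles with many motile cilia each, and mice that lack *Ak7*, *Ak8*, *Nme5* or *Nme7* develop hydrocephalus. A progenitor that becomes such a multiciliated cell passes through a deuterosomal stage, in which many centrioles are made, before the cilia grow.

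The study profiled primary cultures of lateral ventricular walls from newborn mice after 2 days of differentiation in serum-free medium. There were 2 single-cell libraries, with C57BL/6N as the genotype of replicate 1 and C57BL/6J as that of replicate 2, and no other genotype or treatment, so library and substrain cannot be told apart. The deposited cell table names 5 stages of the multiciliated lineage (deuterosomal cells called early, mid or late, then early MCCs and MCCs, the multiciliated cells) and 3 progenitor populations (I, II and cycling). It also names microglia, neuroblasts, oligodendrocytes, their precursors (OPCs) and fibroblasts, and leaves some cells without a name. All populations came from the same cultures, sampled at 1 time, in which progenitors had grown to confluence in serum and other cell types had been shaken off before differentiation.

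Replicate 1 held 12028 cells and 173510950 UMIs, replicate 2 held 4373 cells and 70611931 UMIs, and the median cell had 12708 and 14409 UMIs. The libraries shared 13 cell barcodes, and their counts differed far beyond counting noise (chi-square per gene 190.0 over 18305 genes). The labels do not say whether they came from separate litters or days, so p-values speak for these libraries only. They measure the spread of the populations that is left once the overall difference between the libraries is removed. The population names were checked against marker genes. The summed level of 6 deuterosomal markers was highest in mid deuterosomal cells, at 1900 and 2050 CPM in replicates 1 and 2. That of 6 microglial markers was 11300 and 13000 CPM in microglia. The sum of 6 MCC markers did not single out MCCs. It was 4750 and 4740 CPM in MCCs, against 6060 and 5680 CPM in mid deuterosomal cells and 5920 and 5970 CPM in early MCCs. The sum of 6 OPC markers was 1860 and 2580 CPM in OPCs, against 2060 and 2200 CPM in oligodendrocytes. The sum of 6 cycling markers was 2620 and 3030 CPM in cycling progenitors, against 2060 and 4140 CPM in OPCs. CPM here is the UMIs of a gene per 1000000 UMIs of all cells of 1 population in 1 library. CPM from 3′ libraries was compared within a gene, not between genes.

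On GRCm38 (GENCODE M21), all 7 genes are protein coding. *Ak7* lies at chr12:105705976-105782447 on the plus strand, *Ak8* at chr2:28700164-28813165 plus, *Ak9* at chr10:41303980-41434534 plus and *Ak1* at chr2:32621758-32635058 plus. *Nme7* lies at chr1:164304121-164437725 plus and *Nme9* at chr9:99451475-99474751 plus. *Nme7* overlaps *Blzf1* and *Atp1b1* on the other strand and *Gm37411* on its own, *Ak8* overlaps *Mir3088* and *Ak9* overlaps *Gm25626* on the same strand, and *Ak8* and *Ak9* also overlap predicted genes on the other strand. The sources used here do not state whether counting used strand, so reads from any of these overlaps cannot be assigned with certainty. *Atp1b1* itself had 166 and 201 CPM in MCCs, against 294 and 344 CPM in progenitors I. The part of reads from *Atp1b1*, *Blzf1* or *Gm37411* in the *Nme7* count was not tested.

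Since regulatory factors of motile cilia genes, RFX proteins and FOXJ1, bind known short motifs, the 250 bases before the annotated transcript start were searched on both strands in RefSeq windows of GRCm38.p6. The motifs were the RFX half-sites GTTGCC and GTTACC, the full X-box (which contains half-sites), the forkhead motif TGTTTAC and the CCAAT box. Windows of 4 start sites, all on the plus strand, are shown to set adenylate kinase genes that were higher in the lineage beside *Ak1*, with half-site and forkhead matches in capitals. The *Ak7* window leaves out its last 6 bases, which lie in an annotated exon.
Ak7 chr12:105705732-105705975: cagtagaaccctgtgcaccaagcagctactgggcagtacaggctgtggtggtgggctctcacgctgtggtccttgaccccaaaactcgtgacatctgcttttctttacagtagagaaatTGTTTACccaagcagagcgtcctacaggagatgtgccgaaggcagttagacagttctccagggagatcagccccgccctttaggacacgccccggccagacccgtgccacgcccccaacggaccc
Ak8 chr2:28699911-28700160: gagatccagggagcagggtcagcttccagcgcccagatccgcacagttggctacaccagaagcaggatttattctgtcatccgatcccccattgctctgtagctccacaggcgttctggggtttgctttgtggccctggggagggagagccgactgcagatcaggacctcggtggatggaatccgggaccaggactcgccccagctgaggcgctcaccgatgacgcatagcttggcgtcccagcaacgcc
Ak9 chr10:41303684-41303933: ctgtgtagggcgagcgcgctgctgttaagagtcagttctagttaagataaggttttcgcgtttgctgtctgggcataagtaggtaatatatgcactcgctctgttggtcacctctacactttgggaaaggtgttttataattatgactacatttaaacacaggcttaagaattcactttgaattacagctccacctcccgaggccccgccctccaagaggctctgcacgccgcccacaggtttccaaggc
Ak1 chr2:32629250-32629499: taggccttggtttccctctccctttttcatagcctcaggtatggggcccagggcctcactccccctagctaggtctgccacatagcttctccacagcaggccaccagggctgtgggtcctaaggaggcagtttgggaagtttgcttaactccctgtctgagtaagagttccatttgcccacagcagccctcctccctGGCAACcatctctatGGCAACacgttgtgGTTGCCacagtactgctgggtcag
The *Ak7* window held 1 forkhead match, 131 to 125 bases before the start, a motif found in 3.17% of 32851 windows of that length. The *Ak8* and *Ak9* windows held no match to any of these motifs. The *Ak1* window shown held 3 GTTGCC matches in both orientations within the last 53 bases, a motif found in 10.4% of windows. This is 1 of 4 *Ak1* start sites and the one with the most matches. Another (chr2:32621508-32621757) held 2 matches and the remaining pair none. The share of 10.4% is per window, and *Ak7*, *Ak8* and *Ak9* had a single window each, so *Ak1* is not set beside them on equal terms. The *Nme7* window (chr1:164307422-164307671), not shown, held 1 GTTGCC and 2 CCAAT matches, the second motif being present in 33.8% of windows. The *Nme9* window (chr9:99455993-99456242) held none. These windows lie inside the GENCODE spans of *Nme7* and *Nme9*, so the bases before the GENCODE starts of these genes were not searched. A full X-box, present in 1.29% of windows, was in none of the windows of *Ak1*, *Ak7*, *Ak8*, *Ak9*, *Nme7* and *Nme9*. GTTACC, present in 6.06% of windows, was in none of them either. *Nme5* was not covered by the motif search.

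What separates the multiciliated lineage from resting progenitors was asked first. All 6 ciliary kinases were higher in the 5 lineage stages than in progenitors I and II, by 2.12-fold for *Nme7* to 47-fold for *Nme9*, and *Ak1* was not. The median log2 fold change of the 6 was 2.87, beside 0.01 over all 15877 genes tested. The share of all genes called higher was 36%, so a higher call alone was common. For sides of several populations, CPM are plain averages, while folds compare averages of log levels, so the ratio of the CPM can differ.

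**Figure D1:**
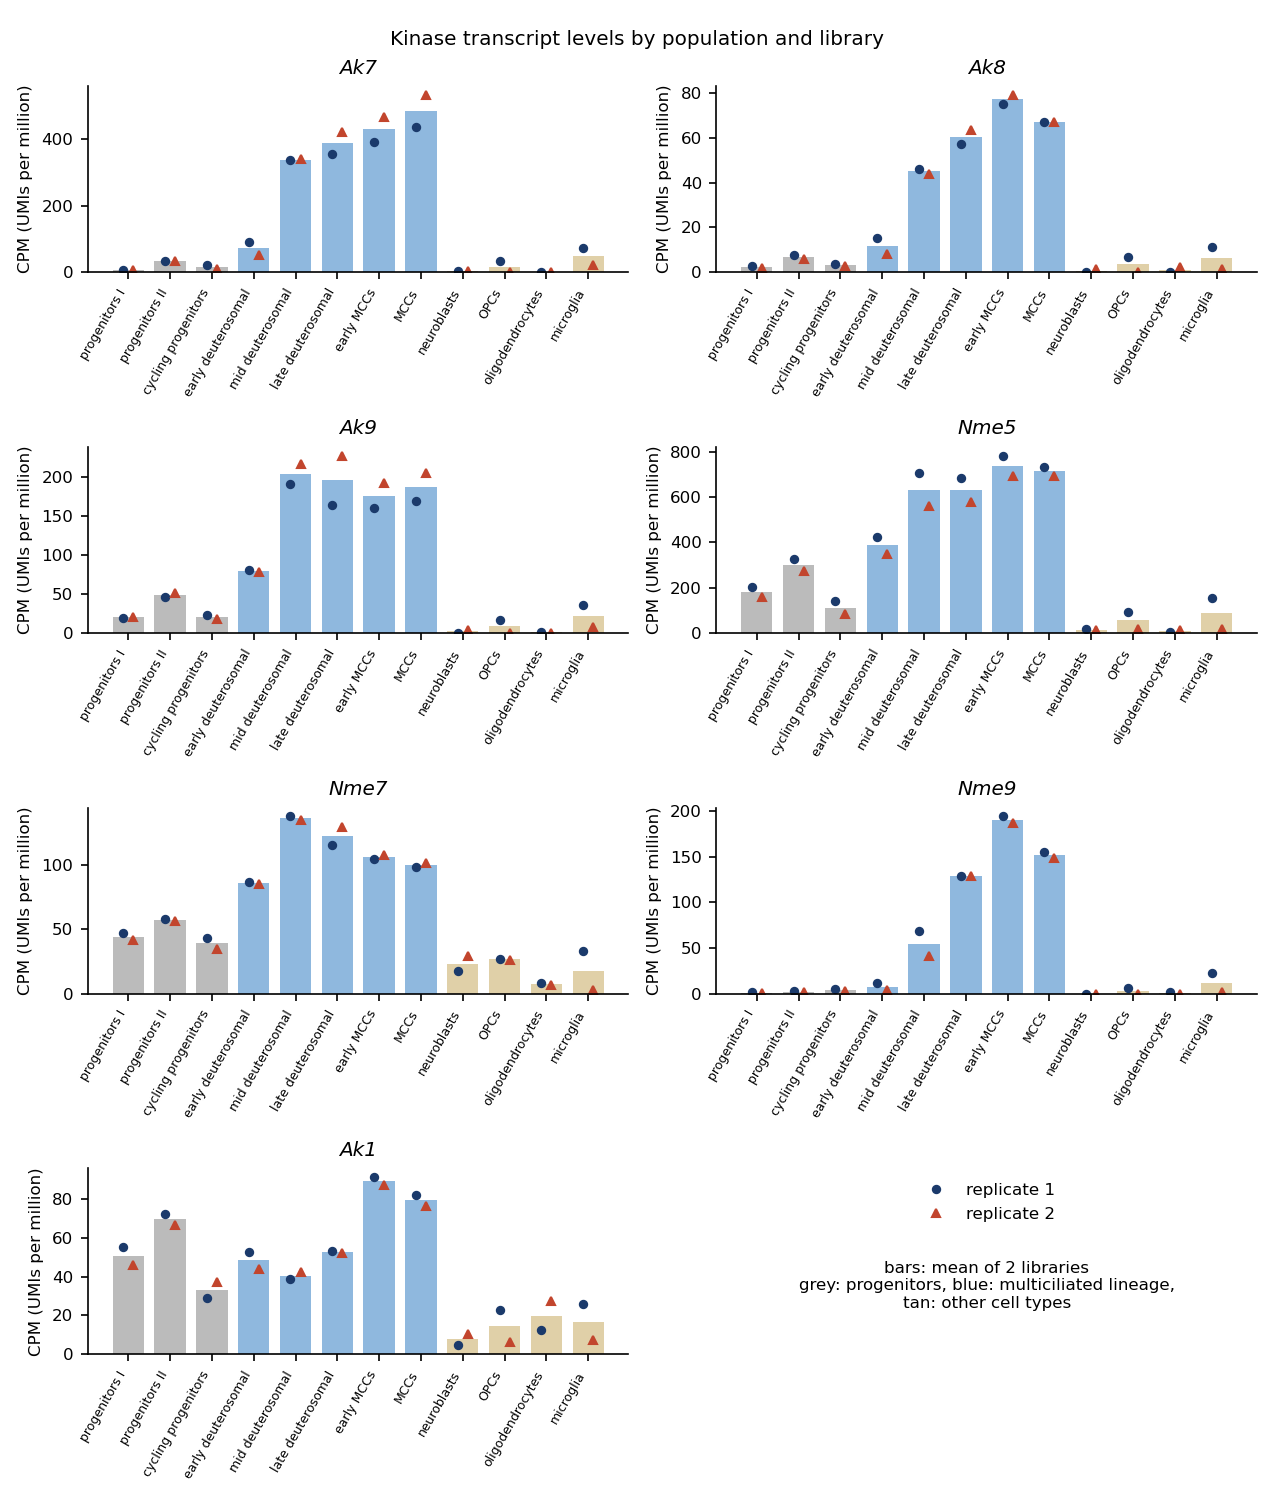
CPM of each kinase gene (vertical axis) in each named population with at least 20 cells per library (horizontal axis), points for replicates 1 and 2 and bars for their mean. All 6 ciliary kinases stand highest in mid deuterosomal cells or later. Ak7, Ak8, Ak9 and Nme9 are low in progenitors I, while Nme5 has 203 and 157 CPM, Nme7 47.0 and 41.4 CPM and Ak1 55.0 and 45.7 CPM there.

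*Ak7*, whose loss in mice leads to impaired ciliary beating, averaged 321 and 362 CPM over the lineage stages in replicates 1 and 2, against 19.9 and 19.5 CPM in the resting progenitors. The groups did not overlap, and the log2 fold change was 4.37 ± 0.25 (SE, edgeR quasi-likelihood test on 26 sums, adjusted p = 2.34e-09). *Ak8*, which carries a pair of adenylate kinase domains, averaged 52.2 and 52.4 CPM in the lineage, against 5.16 and 3.91 CPM in progenitors. It rose by 3.41 ± 0.13 (log2, adjusted p = 6.23e-16), with no overlap. *Ak9*, a long protein with several adenylate kinase domains, averaged 153 and 184 CPM in the lineage, against 32.7 and 35.9 CPM in progenitors. It rose by 2.33 ± 0.14 (log2, adjusted p = 3.26e-10), again without overlap.

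*Nme5* (chr18:34562634-34579115, minus strand), whose protein is part of the radial spokes, averaged 666 and 575 CPM in the lineage, against 266 and 214 CPM in progenitors. It rose by 1.36 ± 0.25 (log2, adjusted p = 0.000229), and the groups did not overlap. *Nme7*, which sits inside the microtubule doublets and in the γ-tubulin ring complex, averaged 109 and 112 CPM in the lineage, against 52.5 and 49.1 CPM in progenitors. It rose by 1.08 ± 0.10 (log2, adjusted p = 2.52e-09), the smallest called change of the 6. *Nme9*, which joins a thioredoxin domain to a nucleoside diphosphate kinase domain, averaged 111 and 102 CPM in the lineage, against 1.76 and 1.24 CPM in progenitors. It rose by 5.56 ± 0.28 (log2, adjusted p = 3.81e-10), the largest change of the 6. The size of this fold rests on a progenitor level that was not told apart, cell by cell, from that of cells without motile cilia.

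*Ak1* averaged 63.5 and 60.3 CPM in the lineage, against 63.6 and 56.1 CPM in progenitors. The averages overlapped and the difference was not called (log2 -0.03 ± 0.09, adjusted p = 0.804). Its levels at single stages differed, as the stage comparisons show.

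Against cycling progenitors, all 6 ciliary kinases and *Ak1* were higher in the lineage, where 30.6% of all genes were called higher. *Ak7* reached 16.9-fold, *Nme9* 17.6-fold, *Ak8* 13.5-fold, *Ak9* 7.67-fold, *Nme5* 5.64-fold and *Nme7* 2.8-fold. *Ak7* in cycling progenitors was unequal between the libraries, at 22.5 CPM in replicate 1 and 9.85 CPM in replicate 2, and its log2 fold change was 4.82 in replicate 2 alone, against 4.08 in both. *Ak1* had 63.5 and 60.3 CPM in the lineage, against 29.2 and 37.4 CPM in cycling progenitors, without overlap (log2 0.90 ± 0.14, adjusted p = 9.21e-06, edgeR). Cycling progenitors themselves were compared with resting ones, where 21.3% of all genes were called lower. *Nme5* was lower, at 139 and 84.6 CPM in cycling and 266 and 214 CPM in resting progenitors (log2 -1.13 ± 0.36, adjusted p = 0.0246). *Ak1* was lower as well (log2 -0.92 ± 0.15, adjusted p = 3.3e-05), and so was *Nme7*, close to the threshold (log2 -0.40 ± 0.16, adjusted p = 0.0481). The *Nme7* call was lost under 6 of the alternatives tried, and the *Nme5* call with equal cells per population and without the library term. *Ak7*, *Ak8*, *Ak9* and *Nme9* were not called in this comparison. *Ak9* was called lower with RLE scaling, with thinned cells and in a fit of these populations alone (adjusted p = 0.0361, 0.00745 and 0.000336), and *Nme9* was called higher under DESeq2 and in that fit (adjusted p = 0.0382 and 5.09e-05).

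Each gene's level was then read as a percent of its highest stage, in each library apart. This measure includes the level already present in progenitors I, so it does not order the rises from there. *Nme7* and *Nme5* passed 50% of their highest stage first, in early deuterosomal cells, but they also started highest among the ciliary kinases. In progenitors I of replicates 1 and 2, *Nme7* stood at 34.1% and 30.7% and *Nme5* at 25.9% and 22.6%. In early deuterosomal cells, *Nme5* stood at 54.3% and 50.2%. Its step from progenitors II was not called (adjusted p = 0.539, edgeR). *Ak7*, *Ak8* and *Ak9* passed 50% in mid deuterosomal cells and *Nme9* in late deuterosomal cells. Both libraries gave the same stage for every gene. *Ak1* was above 50% from progenitors I on and dipped in mid deuterosomal cells. These percentages are a description of the stages as the submitters named them from the same cells.

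**Figure D2:**
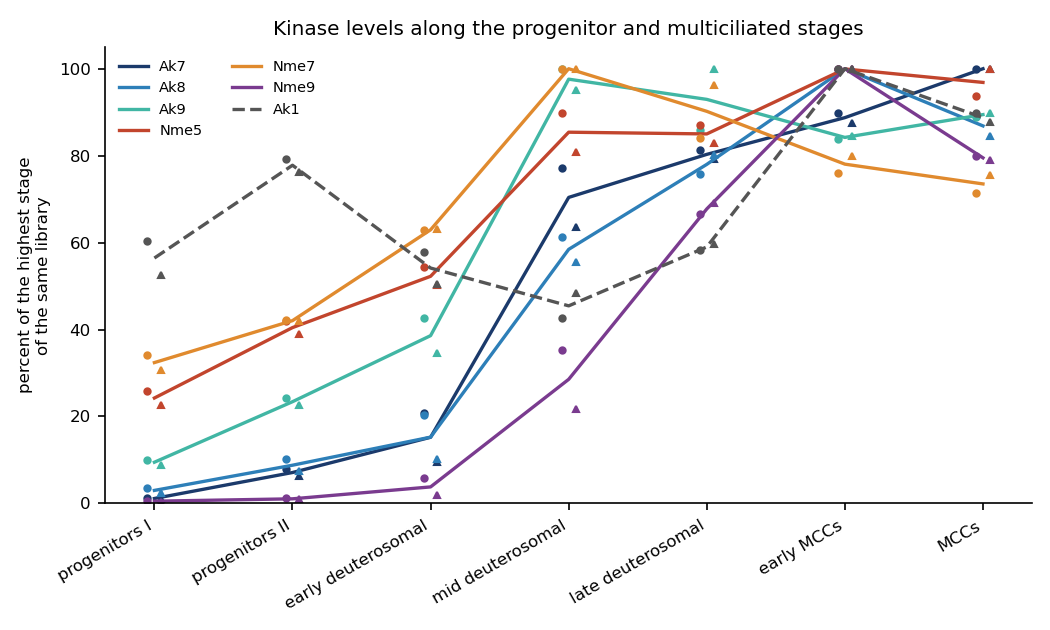
Level of each kinase gene as a percent of its highest stage in the same library (vertical axis) along 7 stages without cycling progenitors (horizontal axis), with circles for replicate 1, triangles for replicate 2 and lines for their mean. Of the 6 ciliary kinases, Nme7 and Nme5 lie highest in early deuterosomal cells and Nme9 climbs last, and the dashed Ak1 line is lowest in mid deuterosomal cells, at 42.6% and 48.3%.

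*Nme9* was at 5.77% and 1.83% of its highest stage in early deuterosomal cells, 35.3% and 21.8% in mid, 66.5% and 69.0% in late deuterosomal cells, and highest in early MCCs, with 194 and 187 CPM. *Nme7* was at 34.1% and 30.7% already in progenitors I and at 62.8% and 63.1% in early deuterosomal cells. It was highest in mid deuterosomal cells, with 138 and 135 CPM, and stood at 71.4% and 75.6% of that in MCCs. *Nme7* thus stood highest 2 stages before *Nme9* in both libraries.

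*Ak7* stood at 20.8% and 9.64% in early deuterosomal cells and at 77.2% and 63.6% in mid deuterosomal cells, and was highest in MCCs, with 435 and 533 CPM. *Ak8* stood at 20.3% and 10.2% in early and 61.4% and 55.5% in mid deuterosomal cells, and was highest in early MCCs, with 75.3 and 79.3 CPM. *Ak9* was highest in mid deuterosomal cells in replicate 1, with 191 CPM, and in late deuterosomal cells in replicate 2, with 228 CPM. Its 4 levels from mid deuterosomal cells to MCCs overlapped between neighbours in rank. *Nme5* was at 25.9% and 22.6% of its highest stage in progenitors I and above 80% from mid deuterosomal cells on. Its 4 highest populations overlapped between neighbours as well.

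Each step between neighbouring stages was then tested. From progenitors I to progenitors II, *Ak7*, *Ak8* and *Ak9* were higher, where 4.45% of all genes were. *Ak7* had 34.0 and 34.1 CPM in progenitors II, against 5.90 and 4.87 CPM in progenitors I (log2 2.56 ± 0.41, adjusted p = 0.00207, edgeR), with no overlap. *Ak8* had 7.67 and 5.85 CPM in progenitors II, against 2.65 and 1.96 CPM in progenitors I (log2 1.47 ± 0.27, adjusted p = 0.00107). *Ak9* had 46.3 and 51.6 CPM in progenitors II, against 19.2 and 20.2 CPM in progenitors I (log2 1.23 ± 0.23, adjusted p = 0.00329). The values of these 3 genes were apart in both libraries, but so were those of the other 4 members, which were not called. The share of all genes so apart was not counted. *Nme5*, *Nme7*, *Nme9* and *Ak1* were not called, though *Nme5*, *Nme7* and *Ak1* were with cells thinned to 5000 UMIs, *Ak1* with scaling by library size only, and all 4 in a fit of these populations alone. The summed level of 6 MCC markers, among them *Foxj1* and *Rsph1*, was 881 and 897 CPM in progenitors II, against 404 and 386 CPM in progenitors I, and its part in the result was not tested. With equal cells per population, none of the 3 kept its call, and without the library term *Ak8* and *Ak9* lost theirs (adjusted p = 0.0614 and 0.213, edgeR).

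The calls between early deuterosomal cells and progenitors II depended on the settings. *Ak7*, *Ak8*, *Ak9*, *Nme7* and *Nme9* were called higher, where 16.9% of all genes were, and *Ak1* was called lower, where 14.5% were. *Nme7* had 86.6 and 85.2 CPM in early deuterosomal cells, against 58.1 and 56.7 CPM in progenitors II (log2 0.56 ± 0.16, adjusted p = 0.0107, edgeR), and *Ak9* had 81.4 and 78.8 CPM in early deuterosomal cells, against 46.3 and 51.6 CPM in progenitors II (log2 0.70 ± 0.22, adjusted p = 0.0238). *Nme9* had 11.2 and 3.42 CPM in early deuterosomal cells, against 2.35 and 1.70 CPM in progenitors II (log2 1.86 ± 0.55, adjusted p = 0.0214), and only 0.92 in replicate 2 alone. *Ak1* had 52.7 and 44.0 CPM in early deuterosomal cells, against 72.2 and 66.5 CPM in progenitors II, without overlap (log2 -0.54 ± 0.15, adjusted p = 0.0097). All 6 calls were lost without the library term and with equal cells per population, and those of *Ak7*, *Ak8*, *Ak9* and *Nme7* also under DESeq2. *Ak7* and *Ak9* lost theirs without the filter on low counts and *Ak8* with thinned cells, and *Nme5* was called higher in a fit of these populations alone (log2 0.37).

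The step from early to mid deuterosomal cells held the largest median change of the 6 ciliary kinases among the steps tested, though not the largest of *Ak7*, whose change between progenitors II and I was 2.56. *Ak7*, *Ak8*, *Ak9*, *Nme7* and *Nme9* were higher in mid deuterosomal cells, where 28.2% of all genes were, and the median log2 fold change of the 6 was 1.74 beside 0.08 over all genes. *Nme9* had 68.4 and 40.8 CPM in mid, against 11.2 and 3.42 CPM in early deuterosomal cells (log2 2.98 ± 0.35, adjusted p = 1.18e-05, edgeR), with no overlap. *Ak7* had 336 and 339 CPM in mid, against 90.4 and 51.4 CPM in early deuterosomal cells (log2 2.36 ± 0.33, adjusted p = 6.16e-05). *Ak8* rose by 2.03 ± 0.19 and *Ak9* by 1.45 ± 0.21 on the log2 scale (adjusted p = 1.88e-08 and 3.44e-05), and *Nme7* by 0.78 ± 0.16 (adjusted p = 0.000333). The *Nme7* call was lost without the library term and with equal cells per population. *Nme5* had 704 and 562 CPM in mid, against 425 and 349 CPM in early deuterosomal cells, without overlap but not called (log2 0.81 ± 0.39, adjusted p = 0.102), a call it reached with thinned cells (log2 0.84, adjusted p = 1.89e-06) and in a fit of these populations alone (log2 0.72). *Ak1* had 38.8 and 42.1 CPM in mid, against 52.7 and 44.0 CPM in early deuterosomal cells, and was not called (adjusted p = 0.425), but was called lower with thinned cells (log2 -0.38, adjusted p = 0.0383) and in a fit of these populations alone (log2 -0.27, adjusted p = 0.0268).

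After that step, the main test called few changes of the ciliary kinases, which does not show that their levels stayed the same. *Ak8* had 46.2 and 44.0 CPM in mid and 57.1 and 63.6 CPM in late deuterosomal cells, and 75.3 and 79.3 CPM in early MCCs. *Nme7* went the other way, with 138 and 135, 116 and 130, and 105 and 108 CPM in the same stages. *Nme9* alone of the 6 was higher in late than in mid deuterosomal cells, where 8.61% of all genes were, with 129 and 129 CPM in late against 68.4 and 40.8 CPM in mid deuterosomal cells (log2 1.14 ± 0.26, adjusted p = 0.00722, edgeR). That call was lost under DESeq2, without the library term and with equal cells, and a fit of these populations alone also called *Ak8* higher (log2 0.35) and *Nme7* lower (log2 -0.21). Between early MCCs and late deuterosomal cells, 10.3% of all genes were called higher and 22.8% in either direction. None of the 6 was called there by the main edgeR test or DESeq2. In the main edgeR test, *Ak8* and *Nme9* had unadjusted p under 0.05 (0.0381 and 0.0407). *Ak8* was called there with RLE scaling and *Nme9* with thinned cells, and a fit of these populations alone called *Ak8*, *Nme5* and *Nme9* higher and *Nme7* lower (log2 0.35, 0.21, 0.55 and -0.22). *Ak1* was called there, with 91.1 and 87.1 CPM in early MCCs, against 53.2 and 51.9 CPM in late deuterosomal cells, without overlap (log2 0.76 ± 0.17, adjusted p = 0.0016), a call lost without the library term and with equal cells. Between MCCs and early MCCs, 10.9% of all genes were called in either direction. No member was called there by the main edgeR test or DESeq2. In the main test, none had an unadjusted p under 0.05. In a fit of these populations alone, *Nme9* was called lower in MCCs (log2 -0.35, adjusted p = 0.00101, edgeR). On simulated counts, this last step recovered 62% of 1.5-fold and 84% of 2-fold changes. Those counts had the typical spread of genes at each level and no library difference. In this step the SE was 0.38 for *Nme5* and 0.31 for *Ak7* (log2), so these rates need not hold for the members.

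Taking early MCCs and MCCs together against the 3 deuterosomal stages, *Ak7*, *Ak8* and *Nme9* were higher, as was *Ak1*, where 28.7% of all genes were. *Nme9* averaged 175 and 167 CPM in the MCC stages, against 69.4 and 57.7 CPM in the deuterosomal stages (log2 2.16 ± 0.18, adjusted p = 2.07e-07, edgeR). This change compares averages of log levels, not these CPM averages. Replicates 1 and 2 alone gave 1.9 and 2.63. *Ak1* averaged 86.4 and 81.8 CPM in the MCC stages, against 48.2 and 46.0 CPM in the deuterosomal stages (log2 0.82 ± 0.10, adjusted p = 3.3e-07), so its later level, unlike its lineage average, was above that of the stages before. *Ak7* rose by 1.09 ± 0.20 (log2, adjusted p = 0.000391) and *Ak8* by 1.14 ± 0.11 (log2, adjusted p = 7.44e-09), the latter without overlap. *Ak7* averaged 413 and 500 CPM in the MCC stages, against 260 and 271 CPM in the deuterosomal stages, but single stages overlapped. It had 422 CPM in late deuterosomal cells of replicate 2 and 391 CPM in early MCCs of replicate 1. Early deuterosomal cells had only 90.4 and 51.4 CPM of *Ak7*, and the main test called none of its later steps from mid deuterosomal cells on. *Ak9*, *Nme5* and *Nme7* were not called, with log2 fold changes of 0.27 ± 0.13, 0.42 ± 0.25 and -0.16 ± 0.10 (adjusted p = 0.0985, 0.168 and 0.198). The first 2 of these were called under RLE scaling, with cells thinned to 5000 UMIs and in a fit of these populations alone, in which *Nme7* was called lower (log2 -0.19). RLE scaling moved the median of all genes in this comparison to 0.17, against 0.03 with TMM scaling.

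Against neuroblasts, OPCs, oligodendrocytes and microglia together, all 6 ciliary kinases and *Ak1* were higher in MCCs, where 40.7% of all genes were. The median of all genes was 0.35 in this comparison, and changes are read against it. *Nme9* had 155 and 148 CPM in MCCs and no UMI in neuroblasts of either library, which allows up to 7.43 and 3.96 CPM at 3 counts. *Ak7* had 435 and 533 CPM in MCCs, against 2.48 and 3.96 CPM in neuroblasts and 1.57 and 0 CPM in oligodendrocytes. Neither cell type overlapped with MCCs. *Nme7* had 98.5 and 102 CPM in MCCs, against 17.3 and 29.0 CPM in neuroblasts and 27.2 and 26.5 CPM in OPCs, above the limit of 3 counts in both libraries. *Nme5* had 734 and 695 CPM in MCCs, against 14.9 and 11.9 CPM in neuroblasts, also above that limit. *Ak1* had 81.8 and 76.4 CPM in MCCs, against 4.95 and 10.6 CPM in neuroblasts and 12.6 and 27.2 CPM in oligodendrocytes (log2 2.41 ± 0.21 against all 4 types, adjusted p = 6.47e-10, edgeR). The fitted log2 fold changes of the 6 went from 2.45 ± 0.21 for *Nme7* to 7.33 ± 0.59 for *Nme9*, and with populations at 0 UMIs they depend on the model's prior count. Single libraries gave other sizes, 5.39 and 8.54 for *Ak7*, 5.60 and 5.96 for *Ak8* and 5.86 and 8.70 for *Nme9* in replicates 1 and 2, against 6.00, 4.85 and 7.33 in both. Replicate 2 alone gave 7.56 for *Ak9*, 5.55 for *Nme5* and 3.16 for *Nme7*, against 5.18, 4.83 and 2.45 in both.

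Microglia and OPCs of replicate 1 stood apart. *Ak7* had 72.2 CPM in microglia of replicate 1 and 21.7 CPM in those of replicate 2, and *Nme5* had 155 and 18.8 CPM. The 289 microglia of replicate 1 held 1413 UMIs of the 6 ciliary kinases, of which 59.9% were in the top 29 cells, and 140 cells held none. The 50 cells with 10 or more such UMIs had a median of 23227.5 UMIs, against 13668 for all microglia of that library. Over all microglia, the summed MCC marker level was 962 CPM in replicate 1 and 152 CPM in replicate 2, and those of replicate 1 held 645 UMIs of *Ccdc153*, an MCC marker. OPCs of replicate 1 held 161 UMIs of the 6 genes and an MCC marker sum of 522 CPM, against 61.1 CPM in replicate 2. The part of these markers in the levels was not tested. With microglia left out, a choice made after seeing the data, all 7 genes were still called higher in MCCs, where 40.7% of all genes were, with *Nme7* at a log2 fold change of 2.77 ± 0.25 and *Ak1* at 2.74 ± 0.25. *Nme9* then had 2.41 CPM in replicate 1 and no UMI in replicate 2 over the other cell types.

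The 6 ciliary kinases were also counted within single cells, after each cell had been thinned to 5000 UMIs. At least 3 of the 6 genes were found in 83.4% and 87.4% of MCCs, in 76.5% and 74.3% of mid deuterosomal cells, in 23.8% and 18.1% of early deuterosomal cells and in 2.56% and 1.49% of progenitors I. The jump between early and mid deuterosomal cells was seen in both libraries. No neuroblast held 3, in 30 and 69 cells, which allows shares of up to 11.6% and 5.21% (exact 95% interval). All 6 genes at once were found in 3.53% and 4.60% of MCCs. Without thinning, at median depths of 13053 and 16747.5 UMIs, a UMI of *Ak7* was found in 97.0% and 98.5% of MCCs, against 1.56% and 0% of oligodendrocytes, at median depths of 8994.5 and 10979.5 UMIs.

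**Figure D3:**
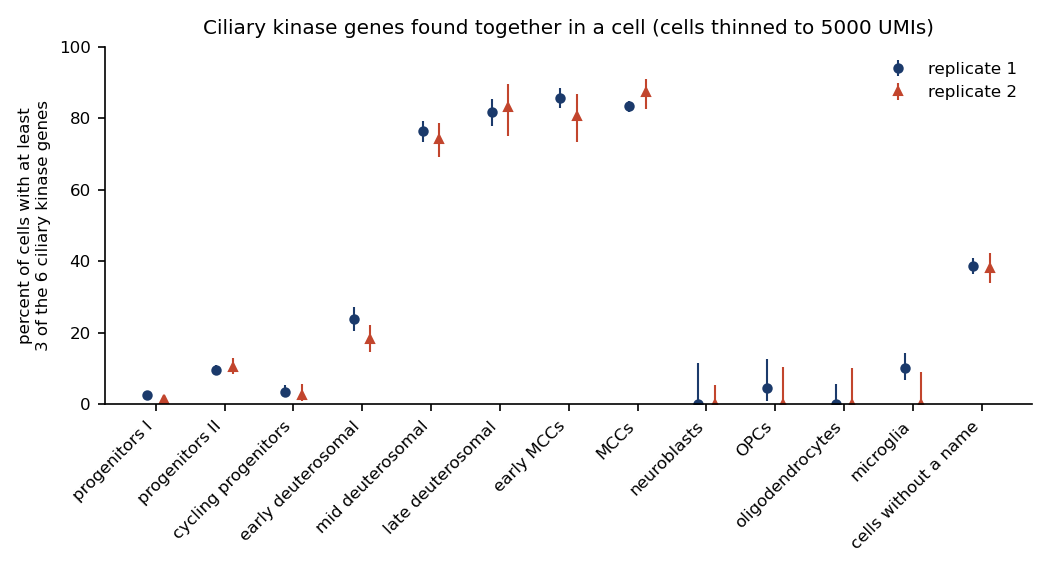
Percent of cells with at least 3 of the 6 ciliary kinase genes (vertical axis) by population (horizontal axis), each cell thinned to 5000 UMIs, with exact 95% intervals that cover counting error only. MCCs stand at 83.4% and 87.4%, and cells without a name at 38.6% and 38.0%, between early and mid deuterosomal cells.

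By gene, thinned MCCs held a UMI of *Ak7* in 84.4% and 88.5% of cells, of *Ak9* in 57.4% and 67.4%, and of *Nme9* in 50.8% and 46.0%. *Ak1* was found in 33.0% and 31.0% of MCCs, against 22.4% and 18.7% of progenitors I, and *Nme7* in 38.4% and 44.1% of MCCs, against 21.4% and 18.3% of progenitors I. *Nme5* was found in 61.7% and 53.7% of progenitors I, while *Nme9* was found in 0.529% and 0.413%. The *Nme9* share in oligodendrocytes was 1.59% in replicate 1, which was 1 of 63 cells (exact 95% interval 0.0402% to 8.53%), and 0 of 35 cells in replicate 2, so the progenitor shares were not told apart from those of a cell type without motile cilia.

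The rest of the nucleotide kinases did not all move one way in the lineage against resting progenitors. Of the 4 other adenylate kinases listed, 1 was higher and 3 were lower, where 34.9% of all genes were lower, with a median log2 fold change of -1. *Ak6* was higher (log2 1.01 ± 0.08, adjusted p = 1.8e-11, edgeR) and peaked in mid deuterosomal cells, at 205 and 241 CPM, but it overlaps *Taf9* on the same strand, so its count is uncertain. *Ak3* and *Ak4*, both mitochondrial, and *Ak5*, known from brain, were lower, by log2 values of -1.09 ± 0.14, -0.90 ± 0.09 and -1.50 ± 0.09.

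Of 6 other nucleoside diphosphate kinases, 2 were higher and 3 were lower, with a median of -0.39, where 36% of all genes were higher and 34.9% lower. *Nme8*, a thioredoxin-domain relative of *Nme9*, was higher, with 6.61 and 7.93 CPM in MCCs against 0.286 and 0.056 CPM in progenitors I (log2 2.57 ± 0.51 for the lineage, adjusted p = 0.000136, edgeR). It was near 0 in mid deuterosomal cells, at 0.285 and 0.259 CPM, where *Nme9* had 68.4 and 40.8 CPM. *Nme6* was higher (log2 0.87 ± 0.07), and the housekeeping *Nme1* and *Nme2* and the mitochondrial *Nme4* were lower (log2 -0.62 ± 0.08, -0.31 ± 0.07 and -0.70 ± 0.07). *Nme1* and *Nme2* both overlap *Gm20390* and *Nme8* overlaps *Gm47606* on the same strand, so these counts are uncertain. Of 12 other nucleotide and creatine kinases, 10 were tested, with 5 higher and 5 lower, against the same shares of all genes. *Lrguk*, a guanylate kinase-domain protein needed for sperm tails, was higher (log2 2.62 ± 0.09), and *Ckb*, the brain creatine kinase that regenerates ATP, was lower (log2 -1.42 ± 0.05).

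**Figure D4:**
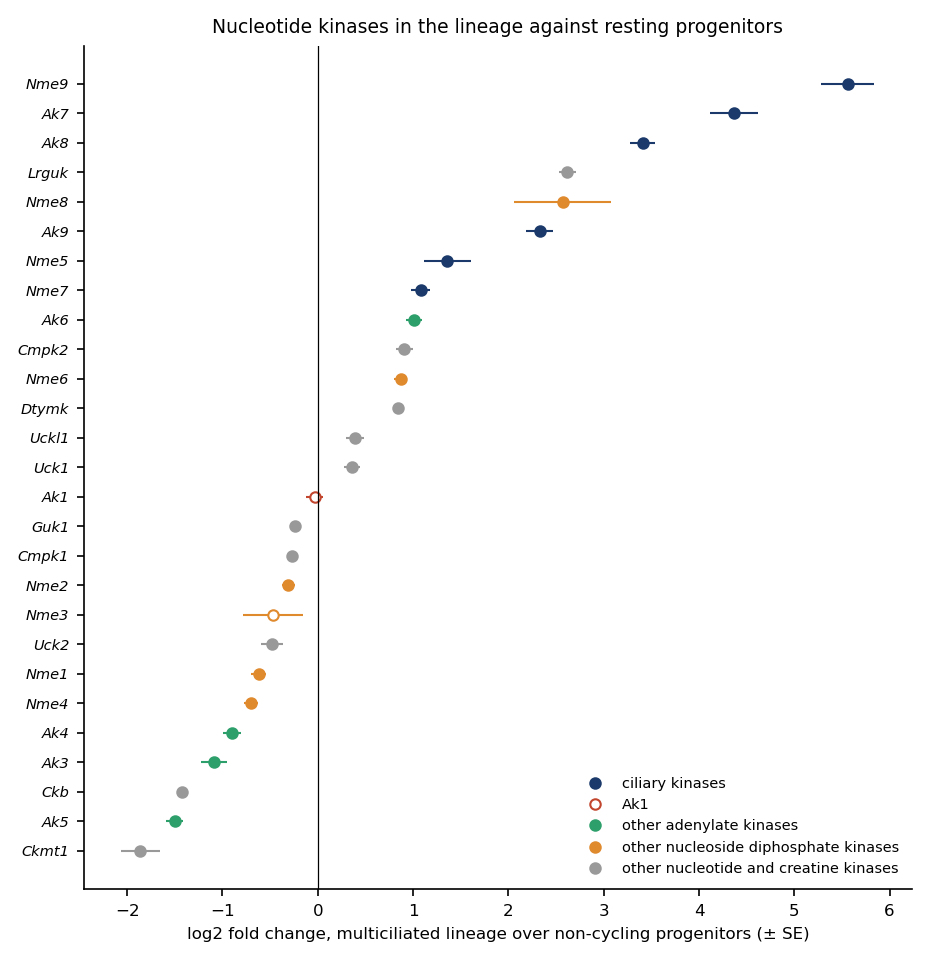
Log2 fold change ± SE (horizontal axis) of the multiciliated lineage over progenitors I and II for nucleotide kinase genes (vertical axis), filled where the adjusted p was under 0.05. Nme9 and Ak7 lie farthest right, at 5.56 and 4.37, Ak1 lies at -0.03, and Ckmt1 and Ak5 lie farthest left, at -1.86 and -1.50.

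The axonemal structures that hold ciliary kinases were set beside the kinases in this comparison, in which 36% of all genes were called higher and 34.9% lower and the median of all genes was 0.01. All 16 radial spoke genes tested of 17 listed were higher, with a median of 2.29, led by *Lrrc23* (log2 4.06 ± 0.22). *Rsph1*, a member of the list, is also among the MCC markers. All 14 central apparatus genes were higher, with a median of 2.45, led by *Spag17* (log2 5.47 ± 0.24) and *Hydin* (log2 4.82 ± 0.20). All 16 genes of the doublet lumen, where NME7 protein is known to lie, were higher, with a median of 2.57. Of 10 genes of the γ-tubulin ring, the other known site of NME7 protein, 3 were higher, 3 were lower and 4 were not called, with a median of 0.10, shares near those of all genes. *Tubg1*, which encodes γ-tubulin, was higher (log2 0.96 ± 0.06), and *Tubgcp5* was lower (log2 -0.38 ± 0.07).

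Across the 26 sums of 13 populations and 2 libraries, Pearson's r on log2(CPM + 1) was 0.96 between *Ak7* and *Ak8*, 0.95 between *Ak8* and *Nme9* and 0.95 between *Ak9* and *Nme5*. The lowest r among the 6 was 0.73, between *Nme7* and *Nme9*. *Ak1* had r of 0.65 with *Nme9* to 0.86 with *Nme5*. These sums share libraries and the single contrast of ciliated with other cells, so the values are a description only. By the same measure, among genes whose log2 CPM averaged 3 or more, *Ak7* was most like *Cfap299*, *Dnah12* (an axonemal dynein heavy chain) and *Ccdc81* (r = 0.989, 0.986 and 0.985). *Ak8* was most like *Mdh1b*, *Poln* and *Cfap70* (r = 0.986, 0.983 and 0.983), and *Ak9* was most like *Daw1*, *Spata17* and *Ccdc74a* (r = 0.992, 0.987 and 0.982). *Nme5* was most like *Spef2*, *Iqcg* and *Akap14* (r = 0.991, 0.987 and 0.987). *Nme7* was most like *Cc2d2a*, *Ift74* and *Dync2h1* (r = 0.983, 0.976 and 0.976), genes of the ciliary transition zone and of intraflagellar transport. *Nme9* was most like *Efcab10*, *Efcab1* and *Fam183b* (r = 0.981, 0.975 and 0.968). *Ak1* was most like *Nipal3*, *Mpp5* and *Tex264* (r = 0.962, 0.961 and 0.958).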

How the data were processed

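The deposited table holds counts of UMIs by gene and cell, from 10x Genomics 3′ v3 chemistry per the labels' protocols. The submitters' processing notes name Cell Ranger 3, Cell Ranger 5.0.1 and the mm10 build. The sources used here do not say which version served which library, how the populations were named or how doublets were treated, and no doublet caller was run. No cell was removed here. The members and gene lists were chosen with earlier results of these data known. UMIs were summed per population and library for the 13 populations, cells without a name among them, that had at least 20 cells in each library, which leaves out fibroblasts. The 26 sums were fitted in edgeR 4.0.16 (R 4.3.3, TMM factors 0.739 to 1.2, default expression filter, robust quasi-likelihood F test) with population and library as terms and 12 residual degrees of freedom. For each of the 15877 genes tested, the 13 populations share 1 estimate of the spread, since each population has only 2 sums. P-values were adjusted over all genes tested by Benjamini-Hochberg, and called means under 0.05. The library term pairs populations of 1 culture. Their deviations from population means had a median correlation of 0.183 within a library (lowest 0.0013). Alternatives were other scalings, DESeq2 1.42.0, no filter, no library term, 34 cells per population and library, cells thinned to 5000 UMIs (479 and 128 shallower cells of replicates 1 and 2 left out), fewer populations, and single libraries (log2 CPM with 2 counts added, no test). On simulated counts, with the typical spread of genes at each level and no library difference, the lineage comparison recovered 94% of 1.5-fold and 98% of 2-fold changes. Intervals are exact and, like the limits of 3 counts, cover counting error only. List genes were named by a rule (up to 3 highest and 3 lowest called, of which fewer are printed), and likeness by the 3 highest r, predicted genes left out. Of the gene IDs, 99.6% matched GENCODE M21. A gene of the kinase lists is not reported here and was left out of the list counts.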

Additional observations from a re-analysis of the deposited data

Results flagged for a closer look

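Cells without a name and fibroblasts enter none of the comparisons as groups of their own, and both held kinase transcripts above the limit that a count of 0 allows. In the 2163 and 565 cells without a name, the mean of both libraries was 166 CPM for *Ak7*, 23.6 CPM for *Ak8*, 108 CPM for *Ak9*, 475 CPM for *Nme5*, 73.3 CPM for *Nme7*, 24.0 CPM for *Nme9* and 78.3 CPM for *Ak1*. The 6 ciliary genes thus lay between the levels of early and mid deuterosomal cells in these means, except *Nme7*, which lay below early deuterosomal cells. The summed level of 6 deuterosomal markers in the same cells was 105 and 78.7 CPM, against 1900 and 2050 CPM in mid deuterosomal cells, and that of 6 MCC markers was 2230 and 2020 CPM. In fibroblasts, of which there were 18 and 22, *Nme7* averaged 18.9 CPM and *Ak1* 46.9 CPM, from 6 and 5 UMIs of *Nme7* and 9 and 20 UMIs of *Ak1*.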

How the results depend on the processing

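The higher calls of all 6 ciliary kinases in the lineage against resting and against cycling progenitors, and in MCCs against other cell types, held under every alternative tested. So did the missing *Ak1* call against resting progenitors. The changes of sign among tested alternatives were in differences that were not called. *Nme5* in late against mid deuterosomal cells was 0.02 with RLE scaling, 0.02 with DESeq2, 0.01 with equal cells and 0 with thinned cells. With equal cells, *Ak9* in the same step was 0, *Nme7* was 0.06 in MCC against deuterosomal stages and 0.16 in early MCCs against late deuterosomal cells, and *Ak8* was 0.25 in cycling against resting progenitors. The cause was not tested.

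Without the library term (no replicate block), fewer genes were called: 89 instead of 1139 in progenitors II against I, 1843 instead of 4991 in early deuterosomal cells against progenitors II, 4541 instead of 7780 in mid against early, 996 instead of 3462 in late against mid deuterosomal cells, 1278 instead of 3613 in early MCCs against late deuterosomal cells, 135 instead of 1723 in MCCs against early MCCs, and 2822 instead of 6135 in cycling against resting progenitors. With 34 cells per population and library, which leaves fewer UMIs, the counts for the same comparisons in this order were 13, 495, 1815, 162, 709, 44 and 1492, and they were 4044 instead of 11248 and 4017 instead of 9412 for the lineage against resting and cycling progenitors, 2929 instead of 8790 for MCC against deuterosomal stages and 5331 instead of 10172 for MCCs against other cell types. Thinned cells gave 1889 in late against mid and 2232 in early MCCs against late deuterosomal cells. Fits of only the compared populations, which have few residual degrees of freedom, gave 5931 in MCCs against other cell types, 4805 in progenitors II against I, 5682 in early MCCs against late deuterosomal cells and 3643 in MCCs against early MCCs. Depth limits the neuroblast, OPC and oligodendrocyte values, with as few as 403704 UMIs in neuroblasts of replicate 1.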

Other observations

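Within early deuterosomal cells, the 7 kinases were set against the deposited cycle classes. *Nme7* had 120 and 100 CPM in cells classed S, S/G2 or G2/M, against 77.8 and 78.7 CPM in cells classed G0 or G1, and *Ak9* had 99.2 and 97.9 CPM in the S, S/G2 or G2/M cells, against 76.7 and 70.5 CPM in the G0 or G1 cells. *Ak1* lay the other way, with 39.5 and 29.6 CPM in the S, S/G2 or G2/M cells, against 56.2 and 50.2 CPM in the G0 or G1 cells. *Nme9* had 4.16 and 2.28 CPM in the S, S/G2 or G2/M cells, from 8 and 5 UMIs, against 13.0 and 3.91 CPM in the G0 or G1 cells, from 95 and 20 UMIs. *Ak7* had 88.9 and 65.1 CPM in the S, S/G2 or G2/M cells, against 90.8 and 45.5 CPM in the G0 or G1 cells, so the libraries differed in direction. *Ak8* had 15.1 and 9.11 CPM in the S, S/G2 or G2/M cells, against 15.3 and 7.62 CPM in the G0 or G1 cells, likewise without a common direction. *Nme5* had 455 and 368 CPM in the S, S/G2 or G2/M cells, against 418 and 341 CPM in the G0 or G1 cells. These classes were assigned by the submitters from the same counts, and the differences were not tested.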
